A study of Mus musculus with 4 samples.

Results

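Cell cycle genes were read here as 51 named genes: 17 whose transcripts are made around S phase, 32 whose transcripts peak in G2 and mitosis, and a microtubule pair, Stmn1 and Tubb5, kept in neither list. The rule lists the genes by name and uses no measured value, though the genes were chosen with earlier results of these data known. All 51 were rows of each of the 4 count matrices, which together list 13036 genes. Mononuclear cells with the surface markers CD45 and CD11b and without Ly6G, a neutrophil marker, had been sorted from the synovium of hind paws, the membrane that lines the joint, and their RNA was counted cell by cell at the 3' end. All mice were Cx3cr1creER:tdTomato animals that had received tamoxifen in a pair of doses, which turns on the tdTomato reporter in cells that then express Cx3cr1. K/BxN serum, which carries arthritogenic autoantibodies, followed 4 weeks later. Day 0 was the steady state without serum, and the other libraries came from day 1, day 2 and day 5 after serum. There was 1 library a day, the labels do not give the number of mice or their age, and the effect of a day cannot be told apart from that of its library. No difference between days was therefore tested, and every interval below is a 95% interval for counting error only.

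Before a cell divides it loads the MCM helicase onto its DNA, makes deoxynucleotides and copies the genome in S phase. In G2 and mitosis, cyclin A and B activate the kinase Cdk1, condensin packs the chromosomes, kinetochores attach them to the spindle, and the anaphase-promoting complex releases them. The E2F factors drive many S genes, and a complex of B-Myb, FoxM1 and MuvB drives many G2/M genes later in the cycle. Macrophages of the joint are replaced both by division within the tissue and by blood monocytes, and macrophages of the synovial lining, interstitial macrophages and MHC class II cells differ in how they are renewed.

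After removal of barcodes with fewer than 500 genes or at least 10% mitochondrial UMIs, 3715, 4642, 2722 and 3235 cells were retained at days 0, 1, 2 and 5. A UMI, or unique molecular identifier, stands for 1 captured RNA molecule. Retained cells had a median of 1057 UMIs at day 0 and between 3607.5 and 4183.5 at the later days, and 49.9% of day 0 barcodes fell under the gene minimum. Each cell was therefore thinned at random to 500 UMIs, and a level below is given in CPM, the UMIs of a gene or list per 1000000 UMIs of the thinned cells, unless all UMIs are named. CPM values are compared between days or groups of cells, and not between genes, since they are not per length. Csf1r, C1qa, Lyz2 and the other 3 macrophage markers summed to between 33249 and 43844 CPM in the 4 libraries, so markers of the labelled cells were present in all 4. Retained barcodes shared between pairs of libraries numbered 10 to 22. Doublets were not removed.

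In thinned cells, G2/M genes were lower at days 1 and 2 than at day 0 and stood near the day 0 level again at day 5. The sum of all 17 S genes stayed nearly level there, though not without the deepest cells. The 32 G2/M genes summed to 509 (477 to 543), 371 (347 to 397), 310.1 (281 to 341) and 543 (507 to 579.9) CPM at days 0, 1, 2 and 5. The 17 S genes summed to 247 (225 to 271), 239 (219 to 259), 243 (218 to 271) and 272 (247 to 299) CPM on those days. The G2/M intervals of days 1 and 2 lay below those of days 0 and 5, and the 4 S intervals overlapped. Against day 0, the G2/M sum had ratios of 0.729 (interval 0.664 to 0.801), 0.609 (interval 0.542 to 0.684) and 1.07 (interval 0.971 to 1.17) on days 1, 2 and 5. The matching S ratios were 0.966 (interval 0.852 to 1.10), 0.984 (interval 0.852 to 1.14) and 1.10 (interval 0.964 to 1.26). At day 5 against day 2 the G2/M sum was 1.75 times as high (1.56 to 1.97), and the S sum 1.12 times (0.968 to 1.29).

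These values moved with depth. From all UMIs, which let the deepest cells count most, the G2/M sum was 469, 492, 411 and 798 CPM at days 0, 1, 2 and 5, and the S sum 233, 278, 270.3 and 416. On that scale the G2/M ratio to day 0 was 1.05, 0.876 and 1.70, so the day 1 decrease was not present and day 5 was well above day 0. The S ratio to day 0 was 1.19, 1.16 and 1.79. Without the 5% of cells with most UMIs in each library, the thinned G2/M ratio at day 5 was 0.867. The thinned S ratios were then 0.827, 0.725 and 0.958 at days 1, 2 and 5, so S genes were also lower at days 1 and 2. The day 2 G2/M ratio stayed below 1 under each alternative run, and the day 5 G2/M rise over day 2 was seen with and without thinning (1.94 from all UMIs).

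For each UMI of a G2/M gene there were 0.485 (0.433 to 0.543), 0.643 (0.577 to 0.716), 0.784 (0.677 to 0.908) and 0.501 (0.446 to 0.563) UMIs of S genes at days 0, 1, 2 and 5. The ratio was highest at day 2, with an interval that overlapped that of day 1, and days 0 and 5 did not differ beyond counting error. Core lists, which leave out members such as Pcna, Mcm6, Hmgb2 and Smc4, held 14 S and 26 G2/M genes and gave 0.524, 0.853, 1.22 and 0.656. They are not confined to genes of dividing cells. Mcm3 and Cenpa, both kept, had more thinned UMIs in cells with no other G2/M UMI than in cells with at least 2. The core S sum itself was 1.25 (1.06 to 1.49) times day 0 at day 5 in thinned cells. From all UMIs the full lists gave 0.497, 0.565, 0.658 and 0.522, the same order of days over a narrower range. With the 5% of cells with most UMIs left out they gave 0.509, 0.655, 0.636 and 0.562, so that day 1 was then highest.

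**Figure D1:**
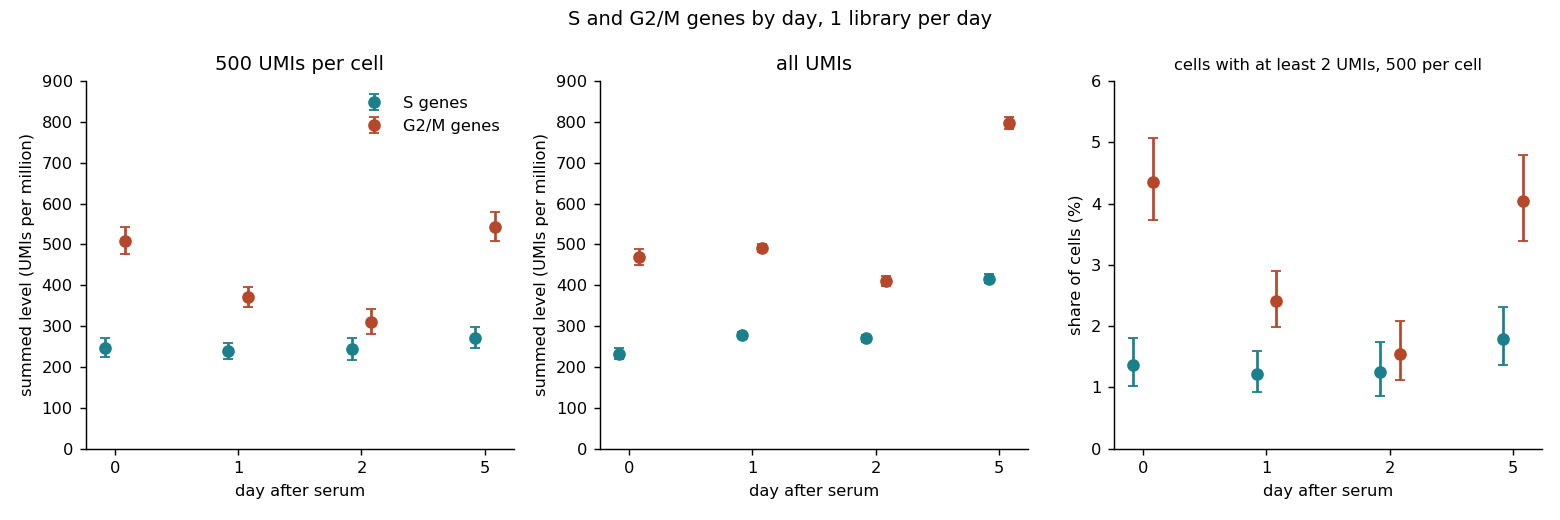
Summed level of the S genes and the G2/M genes by day in CPM, from thinned cells and from all UMIs, and the share of thinned cells with at least 2 UMIs of each list, with bars for 95% counting intervals. In thinned cells the G2/M sum is 509, 371, 310.1 and 543 at days 0, 1, 2 and 5, while the S sum stays between 239 and 272.

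The promoters of 4 members are shown because these genes carry the contrasts described below. Pclaf and Rrm2 were the S genes with the strongest concentration in cells with other G2/M UMIs, and Birc5 and Ube2c were the G2/M genes with the lowest ratios at day 2. Sequences are RefSeq's, from GRCm38.p6, and cover the 250 bases before the start, 5' to 3' on the plus strand. Pclaf lies at chr9:65890073-65890322, Rrm2 at chr12:24708004-24708253, Birc5 at chr11:117848987-117849236 and Ube2c at chr2:164769679-164769928. Capitals mark matches on either strand to 3 motifs. The E2F motif was read as TTT, then CC, CG, GC or GG, then CGC. The cell cycle homology region (CHR) was read as TTTGAA or TTCGAA, and the CCAAT box as CCAAT, and no motif contains another.
Pclaf: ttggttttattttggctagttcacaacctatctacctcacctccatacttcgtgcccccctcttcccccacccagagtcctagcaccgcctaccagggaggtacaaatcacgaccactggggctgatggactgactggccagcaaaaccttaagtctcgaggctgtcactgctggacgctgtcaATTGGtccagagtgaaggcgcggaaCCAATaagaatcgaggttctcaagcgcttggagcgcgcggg
Rrm2: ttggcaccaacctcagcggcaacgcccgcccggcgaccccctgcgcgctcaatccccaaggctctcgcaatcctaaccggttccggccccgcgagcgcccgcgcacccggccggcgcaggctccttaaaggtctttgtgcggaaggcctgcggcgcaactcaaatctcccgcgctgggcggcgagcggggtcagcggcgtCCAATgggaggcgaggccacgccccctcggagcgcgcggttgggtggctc
Birc5: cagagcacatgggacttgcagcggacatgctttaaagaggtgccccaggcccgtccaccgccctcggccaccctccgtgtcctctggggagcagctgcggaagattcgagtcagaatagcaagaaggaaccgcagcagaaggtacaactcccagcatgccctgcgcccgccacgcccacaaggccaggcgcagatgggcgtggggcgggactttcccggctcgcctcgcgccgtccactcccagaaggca
Ube2c: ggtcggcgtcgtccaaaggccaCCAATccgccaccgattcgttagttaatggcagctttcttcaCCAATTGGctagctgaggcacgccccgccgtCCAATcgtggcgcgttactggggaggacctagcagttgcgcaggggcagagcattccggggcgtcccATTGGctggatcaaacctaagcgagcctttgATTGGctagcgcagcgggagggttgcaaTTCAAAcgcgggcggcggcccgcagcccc
Pclaf holds 2 CCAAT matches, Rrm2 holds 1, Birc5 holds no match, and Ube2c holds 1 CHR match and 6 CCAAT matches.

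Over all members, 43 of the 51 matched a promoter in the table. The 8 without an entry are Aurkb, Kif20a, Mcm4, Stmn1, Smc4, Tpx2, Gmnn and Ccna2. The E2F letters stood in 5 of 15 S genes (33.3%), among them the MCM helicase genes Mcm5, Mcm6 and Mcm7, and in 1 of 27 G2/M genes (3.70%), which was Cdk1, against 2.16% of 27025 genes. The CHR letters stood in 2 of 15 S genes (13.3%) and 12 of 27 G2/M genes (44.4%), against 19.6% of all genes. CCAAT stood in 10 of 15 S genes (66.7%) and 24 of 27 G2/M genes (88.9%), against 37.5% of all genes. The G2/M genes with CHR and CCAAT letters together were the same 12, Mki67, Top2a, Cdk1, Ccnb2, Ube2c, Cdc20, Cks1b, Bub1b, Kif11, Prc1, Smc2 and Hmgb2, against 7.001% of all genes. A match describes letters and not binding.

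Among S genes of thinned cells, the summed ratios to day 0 lay above 1 for the replication helicase and below 1 for nucleotide synthesis, with intervals that included 1. The 6 MCM genes summed to 64.6, 78.4, 75.7 and 82.8 CPM at days 0, 1, 2 and 5, ratios of 1.21 (0.959 to 1.54), 1.17 (0.891 to 1.54) and 1.28 (0.995 to 1.65) to day 0. Mcm6 stood at 21.0, 22.0, 24.2 and 23.5 CPM, and Mcm3 at 17.2, 20.7, 22.0 and 22.3. In thinned cells neither differed between any later day and day 0 beyond counting error. From all UMIs Mcm3 was 1.42 (1.10 to 1.86), 1.41 (1.08 to 1.87) and 1.67 (1.29 to 2.19) times day 0 on days 1, 2 and 5, and Mcm6 reached 1.74 (1.40 to 2.17) on day 5. The 5 nucleotide genes summed to 64.6, 50.4, 47.8 and 53.8 CPM, ratios of 0.780 (0.5997 to 1.02), 0.739 (0.538 to 1.01) and 0.833 (0.624 to 1.11). From all UMIs the direction turned at days 1 and 5, with nucleotide ratios of 1.12, 0.960 and 1.90 (1.66 to 2.18), and the MCM ratios were 1.33, 1.43 and 1.93 (1.70 to 2.20), so the roles were not apart at day 5 on that scale.

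Dut, the enzyme that keeps uracil out of DNA, was the only S gene past 2-fold from day 0 among those counted in thinned cells, with at least 10 CPM in either library. It stood at 21.0, 8.62, 6.61 and 14.8 CPM at days 0, 1, 2 and 5, and was 0.410 (0.227 to 0.721) of day 0 at day 1 and 0.315 (0.134 to 0.661) at day 2. From all UMIs these ratios were 0.639 and 0.504, and its day 5 ratio was 1.71 (1.33 to 2.22), against 0.707 (0.407 to 1.21) in thinned cells. The highest all-UMI ratios at day 5 belonged to Hells, a chromatin remodeller (5.48; 2.92 to 11.6), and Uhrf1, which maintains DNA methylation (3.76; 1.91 to 8.43), both with few UMIs in thinned cells. Rrm1, the large subunit of ribonucleotide reductase, stood at 16.7, 16.4, 22.8 and 17.3 CPM. Tyms, thymidylate synthase, stood at 9.15, 13.8, 8.82 and 6.80. The intervals of both genes' ratios to day 0 included 1 on each day.

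Licensing and clamp genes stayed near the day 0 level, apart from Gmnn at day 5. Pcna, the sliding clamp of DNA polymerase, stood at 64.1, 63.3, 67.6 and 56.9 CPM at days 0, 1, 2 and 5. Gmnn, which blocks a second round of licensing, stood at 30.7, 29.3, 32.3 and 45.1, and was 1.47 times day 0 at day 5 (1.03 to 2.12). Pclaf, which binds the clamp, stood at 11.3, 8.19, 8.08 and 13.0. From all UMIs Pclaf stood at 10.4, 17.5, 10.5 and 32.9 CPM, so its day 5 level was 3.18 times day 0 on that scale and 1.15 times (0.597 to 2.21) in thinned cells. Among the S genes not given one by one, the highest thinned level in any library was 15.1 CPM (Mcm7, day 1). Of the 17 S genes, 9 had their highest level at day 5. The share of all genes highest at day 5 was not computed, and some of these ranks rest on few UMIs. Uhrf1, for example, had 17 thinned UMIs in the 4 libraries.

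G2/M genes were also summed by role, and whether roles differ beyond the spread of their genes was not tested. Among these sums, the anaphase-promoting genes had the lowest ratios to day 0 at days 1 and 2. These are the E2 enzyme Ube2c and the activator Cdc20, whose sum was 36.6, 12.1, 6.61 and 21.0 CPM at days 0, 1, 2 and 5. Ube2c gave 51 of the 68 thinned UMIs of day 0. Cdc20 had thinned ratios of 0.471 (interval 0.193 to 1.09) and 0.562 (interval 0.197 to 1.43) on days 1 and 2, so its decrease was within counting error. From all UMIs they were 0.579 (interval 0.409 to 0.831) and 0.533 (interval 0.363 to 0.788). Ube2c alone stood at 27.5, 7.76, 1.47 and 16.7 CPM, 0.282 (0.155 to 0.492) of day 0 at day 1 and 0.0535 (0.00631 to 0.204) at day 2. Its day 2 value rests on 2 thinned UMIs, and from all UMIs it was 0.293 of day 0. Even at day 5 it was 0.608 (0.367 to 0.988) of day 0 in thinned cells, and 1.34 from all UMIs.

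Cyclins, Cdk1 and the Cks proteins summed to 99.6, 53.0, 49.2 and 87.8 CPM. Those are ratios to day 0 of 0.532 (0.420 to 0.672) at day 1, 0.494 (0.368 to 0.657) a day later and 0.881 (0.703 to 1.10) at day 5. Cdk1, the mitotic kinase, stood at 14.5, 6.89, 4.41 and 14.8 CPM. On days 1, 2 and 5 its ratio to day 0 was 0.474 (0.239 to 0.912), then 0.303 (0.102 to 0.750), then 1.02 (0.564 to 1.84). Cks1b and Cks2, small subunits that bind the kinase, differed at day 5 in thinned cells. Cks1b stood at 29.6, 16.8, 13.2 and 17.3, and at day 5 was still 0.585 (0.357 to 0.938) of day 0. Cks2 stood at 27.5, 17.2, 17.6 and 35.2, and at day 5 was 1.28 (0.864 to 1.91) times day 0. From all UMIs both were higher than at day 0 on day 5, Cks1b at 1.51 (1.22 to 1.88) and Cks2 at 1.71 (1.41 to 2.08), and the sum of the group was 1.73 (1.56 to 1.93) times day 0.

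Like the other role groups of the G2/M list in thinned cells, centromere and chromosomal passenger genes had their lowest sum at day 2. Their sum was 99.6, 66.8, 42.6 and 114 CPM, with ratios to day 0 of 0.671 (0.538 to 0.835), 0.428 (0.313 to 0.578) and 1.15 (0.932 to 1.42). Birc5 (survivin), the passenger subunit, stood at 25.3, 12.1, 5.88 and 22.9. Its ratio to day 0 was 0.477 (0.288 to 0.777) at day 1 and 0.232 (0.0948 to 0.496) at day 2, and day 5 was 3.89 times day 2 (1.78 to 9.67). Cdca8 (borealin), another passenger subunit, stood at 13.5, 9.91, 5.88 and 15.5, a ratio of 0.437 (0.170 to 0.999) at day 2. Cenpa, the centromeric histone, stood at 39.3, 30.2, 19.8 and 38.3, and was 0.505 (0.312 to 0.795) of day 0 at day 2.

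Spindle and cytokinesis genes summed to 56.5, 41.4, 34.5 and 55.6 CPM. Within them Nusap1, which bundles spindle microtubules, stood at 10.2, 5.60, 2.94 and 6.18, a ratio to day 0 of 0.287 (0.0711 to 0.865) at day 2. Cdca3, which takes part in mitotic entry and was kept outside the role groups, stood at 15.1, 4.74, 3.67 and 15.5, ratios of 0.314 (0.141 to 0.651), 0.244 (0.0735 to 0.639) and 1.03 (0.573 to 1.82). Kif23, a cytokinesis motor, had its lowest level at day 0, at 8.61, 14.6, 14.0 and 13.6.

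The sum of chromosome structure genes was near the day 0 level at days 1 and 2 and above it at day 5 in thinned cells. Hmgb2 gave 207 of its 375 UMIs at day 0 and 236 of 402 at day 5. The group summed to 202, 193, 173 and 249 CPM, ratios to day 0 of 0.958 (0.834 to 1.10), 0.859 (0.727 to 1.01) and 1.23 (1.07 to 1.42). Hmgb2, a chromatin protein also made by non-dividing cells, stood at 111, 109, 99.9 and 146 and supplied 21.9% to 32.2% of all G2/M UMIs. Smc4 and Smc2, the condensin pair, stood at 43.6, 40.1, 36.7 and 41.4 and at 18.8, 15.5, 17.6 and 23.5. Top2a, which untangles replicated DNA, stood at 10.2, 14.6, 8.82 and 21.0, and was 2.05 (1.14 to 3.81) times day 0 at day 5. Mki67, which coats mitotic chromosomes, stood at 17.8, 14.6, 10.3 and 16.7. At day 5 the ratios of Smc2 (1.25), Smc4 (0.950) and Mki67 (0.940) to day 0 had intervals that included 1.

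The microtubule pair differed from each other. Tubb5, a tubulin of many cell types, stood at 627, 368, 384 and 336 CPM and stayed at 0.536 (0.483 to 0.594) of day 0 at day 5. Stmn1, which destabilizes microtubules, stood at 75.4, 54.7, 54.4 and 77.9. Its ratios to day 0 of 0.726 (0.566 to 0.930), 0.721 (0.537 to 0.963) and 1.03 (0.806 to 1.32) had the order of the G2/M sum. From all UMIs they were 1.53 (1.35 to 1.75), 1.29 (1.13 to 1.49) and 2.09 (1.84 to 2.39), so the direction turned at days 1 and 2.

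From all UMIs the role groups of the G2/M list also stood higher against day 0 than in thinned cells. Among them the sums of spindle genes (1.34) and of chromosome structure (1.21) lay above day 0 at day 1, and those of cyclins (0.864), centromere (0.973) and anaphase-promoting genes (0.524) below it. At day 2 the anaphase-promoting genes were again lowest, at 0.362 (0.290 to 0.452), followed by centromere genes (0.734) and cyclins (0.749). At day 5 all 5 sums were above day 0, between 1.22 and 1.87. The decreases at day 1 in Birc5, Cdk1 and Cdca3 were smaller on that scale, at ratios of 0.819 (0.658 to 1.03), 0.843 (0.625 to 1.15) and 0.907 (0.669 to 1.25).

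**Figure D2:**
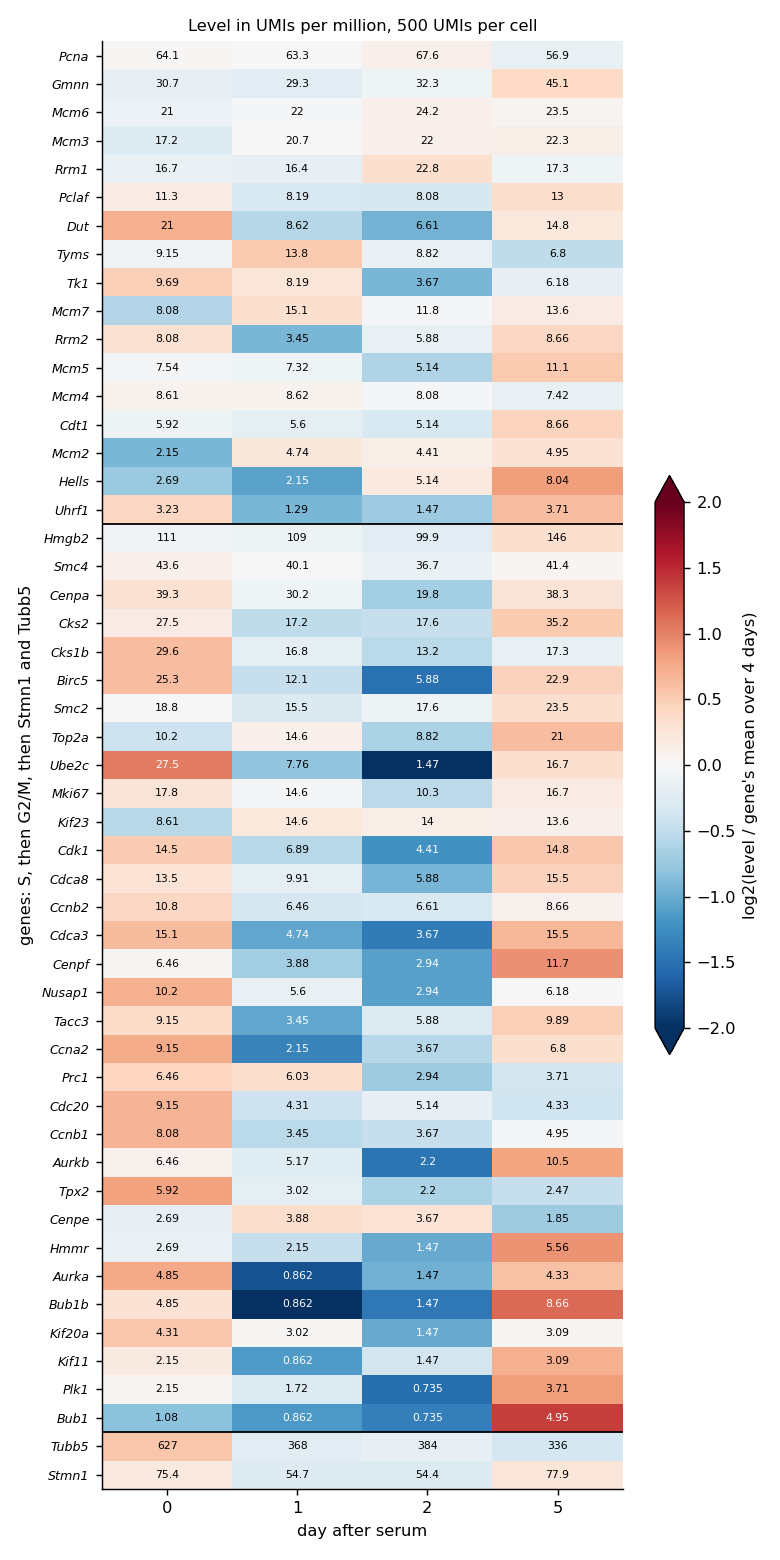
Each member's level by day relative to its own mean over the 4 days, as colour, with its level in CPM printed, rows ordered by list and level and columns by day. Among the 32 G2/M genes, 20 have their lowest level at day 2 and 15 each have their highest at days 0 and 5, while 9 of 17 S genes have their highest level at day 5. The matching shares of all genes were not computed, and some members hold few thinned UMIs, such as Bub1 and Kif11 with 13 each in the 4 libraries.

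Members passed a 2-fold difference from day 0 mostly downward. Genes were counted when both libraries listed them and 1 held at least 10 CPM. At day 1, 5 of 27 members counted were at least 2-fold lower (Dut, Birc5, Cdk1, Ube2c and Cdca3) and none higher, against 2.77% of all genes lower and 5.9% higher. At day 2, 8 of 26 were at least 2-fold lower, the same 5 with Cdca8, Nusap1 and Cks1b, and none higher, against 3.92% of all genes lower and 6% higher. At day 5, 1 of 29 was at least 2-fold higher, Top2a, against 8.07% of all genes, and none lower, against 4.62%. The median ratio to day 0 of the members counted was 0.767, 0.679 and 1.04 at days 1, 2 and 5, against 1.10, 1.09 and 1.06 over all genes. A member counted only because of its day 0 level could pass more easily downward.

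The counts depended on depth. From all UMIs, 0 of 30 members were at least 2-fold lower at day 1, 1 of 28 at day 2 (Ube2c), against 2.41% and 2.98% of all genes, and 15 of 39 were at least 2-fold higher at day 5, against 6.43%. Without the 5% of cells with most UMIs, none of 28 members counted was at least 2-fold higher at day 5 than at day 0, against 8.46% of all genes, and 7 were at least 2-fold lower, against 4.66%. Set against day 2, 10 of 27 members were at least 2-fold higher at day 5 in thinned cells, against 4.92% of all genes.

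Shares of cells with at least 2 G2/M UMIs gave the same order for days 1 and 2, and a stricter limit did not for day 1. Cells with at least 2 G2/M UMIs after thinning, called G2/M cells below, were 4.36% (3.73 to 5.07%), 2.41% (1.99 to 2.90%), 1.54% (1.11 to 2.08%) and 4.05% (3.40 to 4.79%) of cells at days 0, 1, 2 and 5. These were 162, 112, 42 and 131 cells. Cells with at least 5 G2/M UMIs were 0.673% (0.436 to 0.992%), 0.776% (0.544 to 1.07%), 0.478% (0.255 to 0.815%) and 1.17% (0.833 to 1.61%), from 25, 36, 13 and 38 cells. At that limit day 1 did not lie below day 0, and day 5 had the highest share, with intervals that overlapped. Cells with at least 2 S UMIs were 1.37% (1.02 to 1.80%), 1.23% (0.931 to 1.59%), 1.25% (0.867 to 1.74%) and 1.79% (1.36 to 2.31%). Before thinning the G2/M shares were 8.96%, 21.5%, 23.5% and 30.9%, and the S shares 3.88%, 17.0%, 19.6% and 20.4%, at unequal depths. Without the 5% of cells with most UMIs, the thinned G2/M shares were 4.59%, 1.63%, 1.12% and 2.54%, so the day 5 share then lay below day 0. The S shares were then 1.56%, 0.862%, 0.812% and 1.37%, lower at days 1 and 2 than at day 0. No order of days 0 and 5 is read for G2/M, since the share and the level differ in which is higher. Which cells in the gate lack these transcripts is not known, so the part of free RNA in the shares was not tested.

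G2/M cells were deep cells at the later days. Their median was 1045.5, 5534.5, 6505 and 6627 UMIs at days 0, 1, 2 and 5, against 1058, 3621, 4171.5 and 3847.5 UMIs in cells with no G2/M UMI. S and G2/M UMIs met in the same cells. Among G2/M cells 9.26% (5.28 to 14.8%), 26.8% (18.9 to 36.0%), 23.8% (12.1 to 39.5%) and 18.3% (12.1 to 26.0%) also had at least 2 S UMIs. Among cells with no G2/M UMI that share was 0.835%, 0.511%, 0.825% and 0.951%. The intervals of these groups did not overlap on any day.

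Members differed widely in how far they were confined to cells with other G2/M UMIs. For each gene, its level in cells with at least 2 UMIs of other G2/M genes was divided by its level in cells with none, as a ratio of means over the 4 days. It is a description, since all members come from the same cells. Prc1, which bundles the midzone of the spindle, had the highest ratio at 304, followed by Hmmr (266), Ccnb2 (204), Plk1 (176) and Ube2c (158). Birc5 stood at 133, Cdk1 at 73.0, Top2a at 58.1, Mki67 at 34.1, Hmgb2 at 11.1 and Cenpa at 6.98. Of 32 G2/M genes 31 were at least 10-fold and 30 were higher on all 4 days. The ratio was computed for members only, so these counts have no share over all genes beside them. The highest ratios rest on few thinned UMIs in cells with none, 3 for Prc1 and 2 each for Hmmr and Plk1.

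S genes split. Pclaf (92.7), Rrm2 (84.9) and Tk1 (40.5) were confined like mitotic genes, and for Pclaf 62.5% of thinned UMIs lay in cells with at least 2 other G2/M UMIs. Pclaf stood at 74.1, 304, 429 and 198 CPM in those cells at days 0, 1, 2 and 5, against 5.14, 0.487, 0.825 and 4.39 in cells with none. Gmnn stood at 6.27, Pcna at 2.49, Mcm3 at 2.83 and Mcm6 at 1.35, so most of their UMIs came from cells without other G2/M UMIs, which held 365 of the thinned Pcna UMIs against 35 in cells with at least 2. Of 17 S genes 8 were at least 10-fold and 10 were higher on all 4 days, again without a share over all genes. Stmn1 stood at 38.0 and Tubb5 at 4.19.

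**Figure D3:**
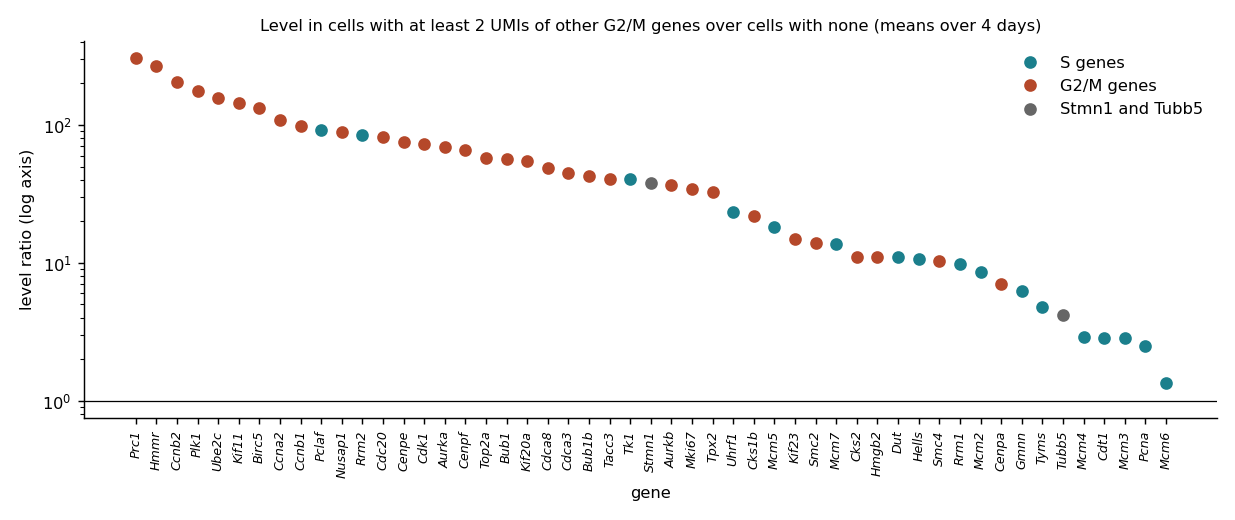
Ratio of each member's mean level in cells with at least 2 UMIs of other G2/M genes to that in cells with none, on a log axis, by list. G2/M genes lie between 6.98 (Cenpa) and 304 (Prc1), and S genes spread between 1.35 (Mcm6) and 92.7 (Pclaf).

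Sparc, Aqp1, H2-Aa, Cd163, Plac8 and Acp5, genes of macrophage and monocyte states, and TdTomato then sorted cells of the same day into positive (at least 1 UMI after thinning) and negative. These statuses overlap and are not cell types: 28.3% of day 0 cells were positive for 2 of the 6 genes and 7.56% for 3 or more, and 9.92% to 13.2% of cells on the other days were positive for 2. H2-Aa encodes an MHC class II chain and marked cells with more G2/M transcripts, most so at days 1 and 2. H2-Aa positive cells had 578, 708, 590 and 663 G2/M CPM at days 0, 1, 2 and 5, against 452, 284, 245 and 498 in negative cells. The ratios were 1.28 (1.12 to 1.46), 2.50 (2.17 to 2.87), 2.41 (1.96 to 2.95) and 1.33 (1.15 to 1.54). Median depths of positive and negative cells were 3573 and 3617 UMIs at day 1. At day 5 the ratio was 1.02 when levels came from all UMIs of the same cells, and 1.73 when status was not thinned either, so its size at day 5 depended on depth.

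Members followed the H2-Aa sums at days 1 and 2. With levels from all UMIs, 29 of 32 G2/M genes were at least 2-fold higher in H2-Aa positive cells at day 1, against 5.55% of all genes, and 23 of 31 at day 2, against 4.36%. At day 5 it was 0 of 32, against 3.23%. At day 1 Birc5 had 54.0 and 10.4 CPM in positive and negative cells (5.17-fold; 4.18 to 6.41), Top2a 46.0 and 14.1 (3.27-fold), and Pclaf 58.2 and 6.06 (9.61-fold; 7.48 to 12.4). Pcna had 67.2 and 62.0, a ratio of 1.08 (0.942 to 1.24). For the S sums, the ratio of positive over negative cells was 0.926 (interval 0.766 to 1.12) on day 0 and 1.79 (interval 1.49 to 2.15) on day 1. It was 1.26 (interval 0.964 to 1.64) on day 2 and 0.782 (interval 0.619 to 0.980) on day 5. The day 5 S ratio was 1.41 when neither status nor level was thinned.

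Sparc, a gene of synovial lining macrophages, marked cells with fewer G2/M transcripts on all 4 days. Sparc positive cells had 396, 207, 217 and 217 G2/M CPM at days 0, 1, 2 and 5, against 560.1, 411, 342 and 603 in negative cells. The ratios were 0.707 (0.607 to 0.822), 0.505 (0.403 to 0.627), 0.636 (0.489 to 0.817) and 0.360 (0.269 to 0.474). At day 0 the ratio turned to 2.36 where cells had to show 1000 genes, which only 96 did. The share of G2/M cells was 1.19% among positive cells at day 5, 6 of 506, and 4.58% among negative cells. By gene, 30 of 32 G2/M members were at least 2-fold lower in Sparc positive cells at day 5, against 9.65% of all genes. Ube2c had 3.71 and 41.8 CPM there (0.0887; 0.0403 to 0.170), Top2a 9.07 and 45.3 (0.200; 0.125 to 0.306) and Hmgb2 60.6 and 213 (0.285; 0.240 to 0.337). S sums followed less far, at 0.988 (0.804 to 1.21), 0.725 (0.567 to 0.919), 0.734 (0.553 to 0.964) and 0.599 (0.429 to 0.820) at days 0, 1, 2 and 5.

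Acp5, the phosphatase of osteoclasts and some macrophages, marked cells with more G2/M and S transcripts at day 5, and these cells were few and deep. The 106 Acp5 positive cells had 1340 G2/M CPM (1046 to 1690) at day 5, against 516 (481 to 553) in negative cells, a ratio of 2.60 (2.01 to 3.31), and an S ratio of 2.47 (1.69 to 3.51). At days 0, 1 and 2 the G2/M ratios were 0.898, 1.24 and 0.943, with intervals that included 1, the day 2 value from 6 UMIs in positive cells. With levels from all UMIs they were 0.873 (0.719 to 1.05), 1.28 (1.12 to 1.45) and 1.84 (1.57 to 2.13), and 15 of 31 G2/M members were at least 2-fold higher in positive cells at day 2, against 7.05% of all genes. Only 1 of the 41 positive cells of day 2 was a G2/M cell. These day 2 values may thus rest on very few cells, which their counting intervals do not show. At day 5, 14 of the positive cells (13.2%; 7.41 to 21.2%) were G2/M cells, against 3.74% (3.10 to 4.46%) of negative cells, and the median depths were 6246.5 and 3871 UMIs. Without the 5% of cells with most UMIs, 79 positive cells were left with 4 G2/M cells among them, and the ratios were 0.815 for G2/M and 0.828 for S. By gene, with levels from all UMIs of all cells, 28 of 32 G2/M members were at least 2-fold higher in positive cells, against 10.7% of all genes, with Top2a at 132 and 32.1 CPM (4.11-fold). The part of doublets in this was not tested.

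Plac8, a monocyte gene, marked 12, 33, 33 and 388 cells at days 0, 1, 2 and 5, so only day 5 is read. At day 5 Plac8 positive cells had 340.2 G2/M CPM and negative cells 570.4, a ratio of 0.596 (0.457 to 0.767), and the S ratio was 0.442 (0.283 to 0.662). The G2/M ratio was 0.929 without the 5% of cells with most UMIs and 0.280 with the core list. From all UMIs 28 of 32 G2/M genes were at least 2-fold lower, against 23.0% of all genes. Hmgb2 was not among them, with 203 and 186 CPM in positive and negative cells (1.09; 0.968 to 1.23), whereas Stmn1 had 4.51 and 144 (0.0313; 0.0126 to 0.0647).

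Cd163 and Aqp1, genes of interstitial macrophages and of several macrophage types, gave ratios that depended on depth. By day in the order 0, 1, 2 and 5, the Cd163 G2/M ratios were 0.691 (0.539 to 0.874), 1.01 (0.828 to 1.22), 0.833 (0.586 to 1.16) and 0.552 (0.370 to 0.793), and the day 5 value was 0.931 with another thinning seed and 1.45 without the 5% of cells with most UMIs. With levels from all UMIs the Cd163 ratios were below 1 on all 4 days, at 0.696 (0.590 to 0.815), 0.850 (0.795 to 0.909), 0.557 (0.492 to 0.630) and 0.327 (0.282 to 0.378). By gene, 17 of 31 G2/M members at day 2 and 26 of 32 at day 5 were then at least 2-fold lower in Cd163 positive cells, against 5.48% and 7.79% of all genes. The Aqp1 ratios were 1.17 (1.02 to 1.34), 0.894 (0.762 to 1.05), 0.864 (0.682 to 1.08) and 1.20 (0.973 to 1.46), and from all UMIs 1.02, 1.03, 0.672 and 0.996. TdTomato positive cells had G2/M ratios of 0.937 (0.815 to 1.08), 0.690 (0.565 to 0.837), 0.680 (0.527 to 0.868) and 0.661 (0.528 to 0.819). Cd163 positive cells were shallower than negative cells at the later days, by medians of 3289 and 3929 UMIs at day 5.

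**Figure D4:**
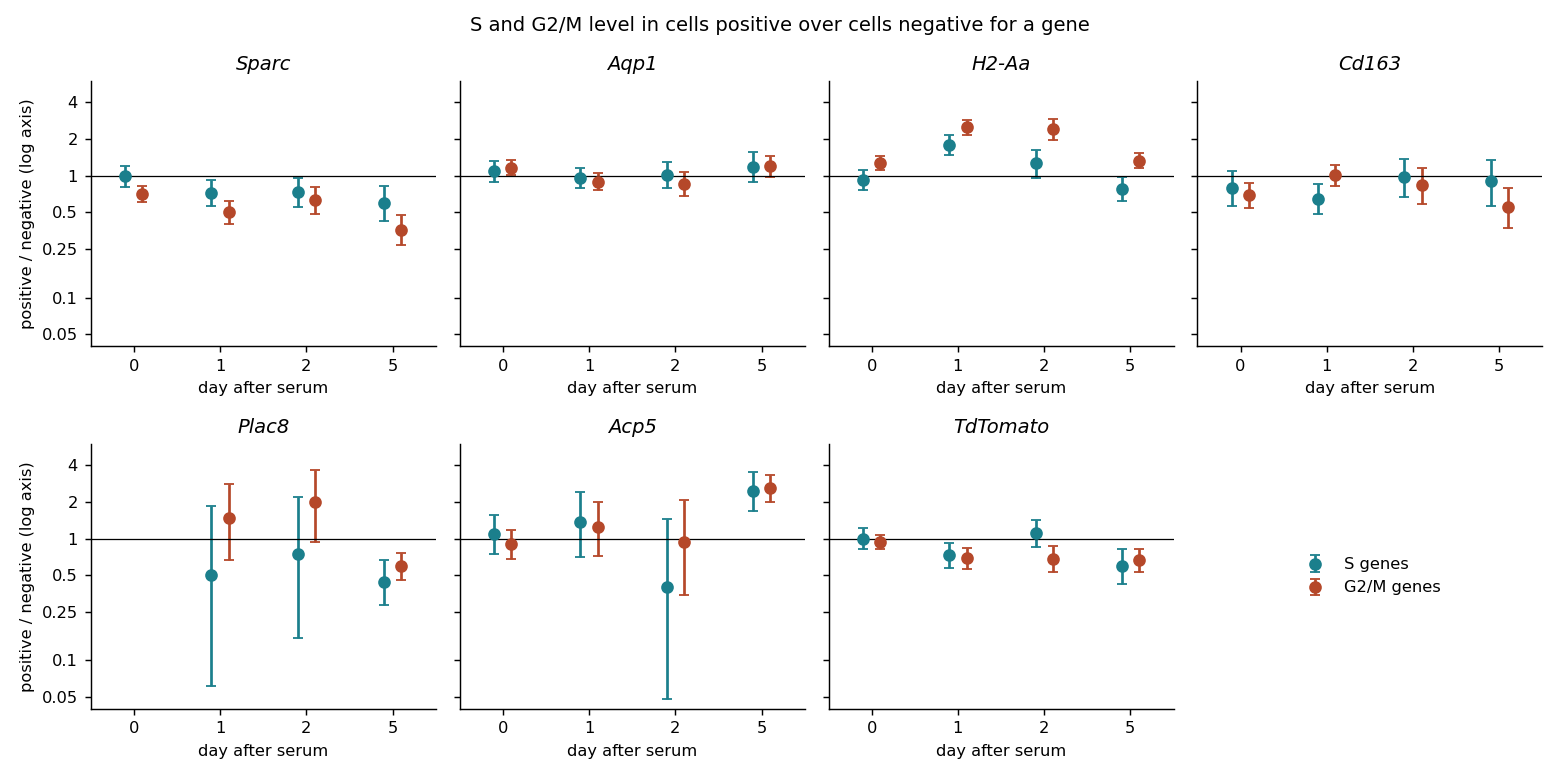
S and G2/M level in cells positive for a status gene over negative cells of the same day, with 95% counting intervals on a log axis, for groups of at least 20 positive cells. H2-Aa lies above 1 for G2/M on all 4 days, Sparc below 1 on all 4, and Acp5 at 2.60 at day 5, which is 0.815 without the 5% of cells with most UMIs.

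Seen from the other side, H2-Aa was detected in 56.8%, 48.2%, 50% and 29.0% of G2/M cells at days 0, 1, 2 and 5, against 44.4%, 19.3%, 17.5% and 26.3% of cells with no G2/M UMI. Sparc was detected in 22.8%, 8.04%, 9.52% and 4.58% of G2/M cells, against 31.8%, 20.2%, 26.1% and 16.9%. Cells negative for all 6 genes made up 13.0%, 23.2%, 28.6% and 42.0% of G2/M cells, against 18.0%, 32.4%, 31.9% and 35.4% of cells with none.

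Other genes of the cycle that are not members were higher in G2/M cells. Of a list of 44 further G2/M and mitosis genes, 28 of 30 counted, 36 of 38, 28 of 30 and 33 of 37 were at least 2-fold higher in thinned G2/M cells than in cells with none at days 0, 1, 2 and 5, against 19.8%, 21.9%, 25.1% and 24.3% of genes that are not members. In thinned G2/M cells 1 UMI made 12.3 CPM at day 0 and 47.6 CPM at day 2, past the 10 CPM minimum. A gene could thus be counted through the G2/M cells alone, so the thinned counts are not read as a difference. From all UMIs, counting genes with at least 20 UMIs, the counts were 7 of 9, 35 of 36, 26 of 27 and 37 of 39, against 7.25%, 9.61%, 12.1% and 11.9%. The list's sum from all UMIs was 5.65 (4.82 to 6.61), 16.7 (15.8 to 17.7), 17.7 (16.3 to 19.2) and 10.4 (9.84 to 10.99) times as high in G2/M cells.

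Pbk, a mitotic kinase, had 162, 176 and 142 CPM in G2/M cells at days 1, 2 and 5, against 0.248, 0.373 and 1.01 in cells with none. Racgap1, a cytokinesis factor, had ratios of 10.3, 28.3, 39.8 and 22.1 at days 0, 1, 2 and 5. Pttg1 (securin) had the most UMIs of the list and went against it, at 0.757, 0.660, 0.766 and 0.711.

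Replication genes outside the S list were mostly higher as well. Of 39, 18 of 28 counted, 29 of 33, 20 of 24 and 29 of 33 were at least 2-fold higher in thinned G2/M cells. The shares of genes that are not members were 19.8%, 21.9%, 25.1% and 24.3%, and these thinned counts have the same limit. From all UMIs it was 11 of 21, 34 of 36, 28 of 30 and 37 of 38, against 7.25%, 9.61%, 12.1% and 11.9%. The sums from all UMIs were 2.24 (1.90 to 2.64), 5.20 (4.91 to 5.50), 5.53 (5.09 to 5.99) and 4.94 (4.71 to 5.18) times as high. Clspn, which relays replication stress, had 57.9, 102 and 55.1 CPM in G2/M cells at days 1, 2 and 5, against 1.05, 0.745 and 1.52. Slbp, which binds histone mRNA, had ratios of 1.74, 2.85, 3.16 and 2.19 at days 0, 1, 2 and 5.

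Chromatin and tubulin genes were higher too, with 10, 12, 12 and 13 of 13 at least 2-fold higher in thinned G2/M cells at days 0, 1, 2 and 5. The shares of genes that are not members were 19.8%, 21.9%, 25.1% and 24.3%. From all UMIs it was 9, 13, 12 and 13 of 13, against 7.25%, 9.61%, 12.1% and 11.9%. H2afz, a histone variant, had ratios of 2.52, 4.83, 4.98 and 2.72 from all UMIs, and H2afx, the histone marked at DNA breaks, 5.40, 23.0, 26.2 and 10.4. The 16 G1 genes were less far apart, at sums of 1.20 (0.939 to 1.51), 1.68 (1.52 to 1.86), 1.52 (1.29 to 1.79) and 1.77 (1.64 to 1.92). Ccnd1 (cyclin D1) stood at 1.26, 2.67, 1.38 and 2.26. Genes that arrest the cycle stood at sums of 1.02, 1.59, 1.19 and 0.781, with Cdkn2c (p18) at 2.16, 2.15, 1.73 and 2.18 and Btg2 at 0.919, 1.53, 0.911 and 0.347.

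Macrophage markers were lower in G2/M cells, at 0.788 (0.766 to 0.810), 0.508 (0.4998 to 0.516), 0.492 (0.480 to 0.504) and 0.309 (0.304 to 0.315) of the level in cells with none from all UMIs. C1qb, a complement gene, stood at 0.780, 0.468, 0.375 and 0.278. Markers of other cell types were few in G2/M cells. The 5 dendritic cell markers summed to 21.9, 17.8, 38.8 and 9.94 CPM in G2/M cells at days 0, 1, 2 and 5, against 27.1, 27.8, 19.1 and 29.9 in cells with none, and the day 2 ratio was 2.03 (0.998 to 3.71). Flt3, a receptor of dendritic cells and their precursors, gave 9 of the 11 UMIs at day 2. From all UMIs the 6 erythroid markers summed to 0, 1.49, 7.05 and 66.9 CPM in G2/M cells at days 0, 1, 2 and 5, against 0.274, 26.2, 4.29 and 163 in cells with none. Car2 made 65.0 of the day 5 sum in G2/M cells, with the haemoglobin genes Hba-a1 and Hbb-bt at 0. That sum therefore rests on Car2 and is not read as a sign of erythroid cells. The 6 T and NK cell markers summed to 54.7, 0, 0 and 8.13 CPM in G2/M cells, against 3.84, 0, 0 and 0.758, from 10 UMIs at day 0 and 9 at day 5, and files of days 1 and 2 list none of them. Neutrophil markers summed to between 1.49 and 12.6. The part of these cells in the G2/M levels was not tested.

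**Figure D5:**
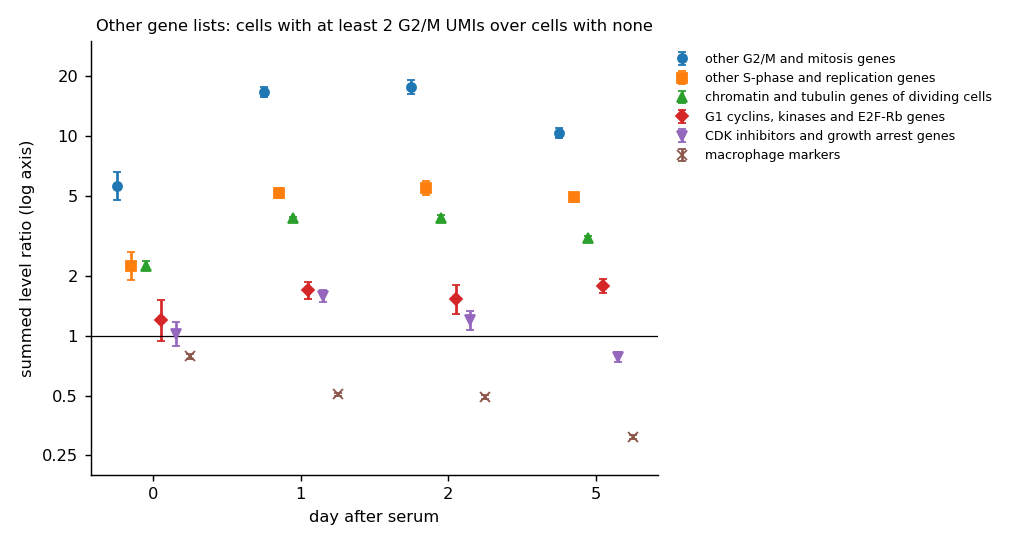
Summed level of 6 gene lists in G2/M cells over cells with no G2/M UMI, by day, on a log axis with 95% counting intervals. The mitosis list lies between 5.65 and 17.7 and the macrophage markers between 0.309 and 0.788.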

How the data were processed

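For each library the authors deposited 1 table of raw UMI counts, genes by cell barcodes, made from Chromium 3' v2 libraries, per the labels' protocols. The submitters' processing notes name Cell Ranger 2.1.0, Seurat 2.3, R 3.5.2 and mm10; the settings of each step are not given in the sources used here. The files list genes found in at least 5 barcodes. Total UMIs per library ranged from 7115082 to 18426363. Barcodes were retained if they held 500 genes or more and a mitochondrial share of UMIs below 10%, and each was thinned to 500 UMIs without replacement, which left out no retained cell. Levels are CPM; ratios have exact conditional Poisson 95% intervals, sums exact Poisson ones and shares Clopper-Pearson ones. With 1 library a day no test was made, and a member was counted as changed at 2-fold or more. The members and gene lists were chosen with earlier results of these data known. Named in full are the 8 S and 10 G2/M members with most UMIs, the microtubule pair and any member past 2-fold from day 0 with at least 20 thinned UMIs in both libraries together; of other lists, members with most UMIs or the largest ratio. Member counts by status and gene values in G2/M cells used all UMIs and genes with at least 20 UMIs. Promoter windows are RefSeq's for GRCm38.p6, matched by symbol. Alternatives covered the gene and mitochondrial filters, the thinned depth and seed, core lists, the deepest cells, the UMIs that make a cell positive, scaling and the filter on low values. The scripts, tested on simulated counts, ran in Python 3.11.15 with pandas 2.3.3, SciPy 1.17.1, matplotlib 3.10.9 and NumPy 2.4.6.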

Additional observations from a re-analysis of the deposited data

Results flagged for a closer look

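S genes were higher in H2-Aa positive than in negative cells at day 1, at 1.79 times (1.49 to 2.15), and lower at day 5, at 0.782 (0.619 to 0.980). The values go opposite ways on these days, and the difference between them was not tested. Another thinning seed gave 0.941 at day 5, and no thinning 1.41.

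Barcodes of the day 0 library with fewer than 500 genes also carried both lists. They entered only the alternative with a minimum of 200 genes. Of 3760 such barcodes, the 3659 with at least 500 UMIs and under 10% mitochondrial UMIs held 213 CPM of S genes (192 to 235) and 380.4 CPM of G2/M genes (353 to 410), and 2.65% of them had at least 2 G2/M UMIs after thinning. The retained day 0 cells held 247 and 509.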

How the results depend on the processing

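No paired analysis was possible because each day has 1 library, and for the same reason no replicate could be left out. Day 0 depth limits most comparisons: a minimum of 1000 genes left 96 day 0 cells, and thinning to 1000 UMIs left 2206. Of 1006 values under alternatives, 724 stayed within the interval or count range of the value reported and 277 moved beyond it. The other 5, ratios at least 2-fold as reported, came to lie on the other side of 1. Smaller ratios that crossed 1 are not among these 5. For example, the Cd163 G2/M ratio of day 1 kept its side of 1 in 2 of 10 alternatives, and the TdTomato S ratio of day 2 in 3 of 10. The day 2 decrease of the G2/M level kept its direction under each alternative, and the Sparc and H2-Aa directions at days 1 and 2 did so for G2/M. The Acp5 ratios and the day 5 level against day 0 did not. Ratios of shares to day 0 and thinning to 750 UMIs were added after the data were seen. The cause of each change below was not tested. With a minimum of 200 genes, the G2/M level was 429 (day 0). The G2/M level ratio to day 0 was 0.867 (day 1), 0.724 (day 2) and 1.27 (day 5). The count of members at least 2-fold higher was 2 (day 1) and 2 (day 5) and the count at least 2-fold lower was 2 (day 1). The Aqp1 G2/M ratio was 0.974 (day 0) and the Cd163 G2/M ratio was 0.875 (day 0). With a minimum of 1000 genes, the S level was 167 (day 0) and the G2/M level was 354 (day 0). The S level ratio to day 0 was 1.43 (day 1), 1.38 (day 2) and 1.7 (day 5) and the G2/M level ratio to day 0 was 1.04 (day 1), 0.912 (day 2) and 1.57 (day 5). The S share in percent was 0 (day 0) and the G2/M share in percent was 2.08 (day 0). The G2/M share ratio to day 0 was 0.967 (day 1), 0.934 (day 2) and 1.89 (day 5). The count of members at least 2-fold higher was 1 (day 1) and 1 (day 2) and the count at least 2-fold lower was 9 (day 1) and 5 (day 5). The Sparc S ratio was 6.29 (day 0) and 0.409 (day 5), the Sparc G2/M ratio was 2.36 (day 0) and 0.351 (day 2) and the H2-Aa S ratio was 1.59 (day 0) and 1.13 (day 5). The TdTomato S ratio was 1.46 (day 0) and 0.731 (day 2), the Cd163 S ratio was 0.903 (day 1) and the Cd163 G2/M ratio was 0.708 (day 1) and 0.574 (day 2). The Acp5 S ratio was 0.482 (day 1) and 1.01 (day 2), the Aqp1 S ratio was 1.34 (day 2) and the TdTomato G2/M ratio was 0.52 (day 2). With a mitochondrial limit of 5%, the S level was 216 (day 2). The S to G2/M ratio was 0.671 (day 2) and 0.57 (day 5). The count of members at least 2-fold higher was 1 (day 1), 1 (day 2) and 2 (day 5) and the count at least 2-fold lower was 8 (day 1), 14 (day 2) and 3 (day 5). The Sparc G2/M ratio was 0.859 (day 0) and 0.465 (day 2), the Aqp1 G2/M ratio was 0.9999 (day 0) and 0.945 (day 5) and the Cd163 G2/M ratio was 0.74 (day 1). The TdTomato S ratio was 0.969 (day 1) and 1.02 (day 5), the Aqp1 S ratio was 1.42 (day 2) and the H2-Aa G2/M ratio was 1.88 (day 2) and 1.09 (day 5). The Cd163 S ratio was 0.469 (day 2) and 0.527 (day 5), the TdTomato G2/M ratio was 0.494 (day 2) and the Plac8 G2/M ratio was 0.826 (day 5). With thinning to 1000 UMIs, the S level was 224 (day 0) and 209.6 (day 1) and the G2/M level was 461 (day 0), 357 (day 2) and 505 (day 5). The S level ratio to day 0 was 1.27 (day 5) and the G2/M level ratio to day 0 was 0.773 (day 2). The S share in percent was 3.35 (day 0), 2.99 (day 1), 2.39 (day 2) and 4.54 (day 5) and the G2/M share in percent was 7.48 (day 0), 3.99 (day 1), 4.11 (day 2) and 5.75 (day 5). The G2/M share ratio to day 0 was 0.55 (day 2). The S to G2/M ratio was 0.57 (day 1) and 0.623 (day 2). The Aqp1 G2/M ratio was 0.93 (day 0), the Cd163 G2/M ratio was 0.742 (day 1) and 0.816 (day 5) and the Cd163 S ratio was 0.617 (day 2). The Acp5 G2/M ratio was 1.78 (day 5). With no thinning, the S level was 278 (day 1) and 416 (day 5) and the G2/M level was 469 (day 0), 492 (day 1), 411 (day 2) and 798 (day 5). The S level ratio to day 0 was 1.19 (day 1), 1.16 (day 2) and 1.79 (day 5) and the G2/M level ratio to day 0 was 1.05 (day 1), 0.876 (day 2) and 1.7 (day 5). The S share in percent was 3.88 (day 0), 17 (day 1), 19.6 (day 2) and 20.4 (day 5) and the G2/M share in percent was 8.96 (day 0), 21.5 (day 1), 23.5 (day 2) and 30.9 (day 5). The S share ratio to day 0 was 4.39 (day 1), 5.05 (day 2) and 5.26 (day 5) and the G2/M share ratio to day 0 was 2.4 (day 1), 2.62 (day 2) and 3.45 (day 5). The S to G2/M ratio was 0.565 (day 1) and 0.658 (day 2). The count of members at least 2-fold higher was 2 (day 1) and 15 (day 5) and the count at least 2-fold lower was 0 (day 1) and 1 (day 2). The TdTomato G2/M ratio was 0.812 (day 0), 0.941 (day 2) and 0.966 (day 5), the Aqp1 G2/M ratio was 1.46 (day 1) and the Cd163 S ratio was 0.903 (day 1). The Acp5 G2/M ratio was 0.606 (day 1), the Aqp1 S ratio was 1.34 (day 2) and the H2-Aa G2/M ratio was 1.84 (day 2) and 1.73 (day 5). The Acp5 S ratio was 1.28 (day 2), the H2-Aa S ratio was 1.41 (day 5) and the TdTomato S ratio was 0.913 (day 5). With another thinning seed, the G2/M level was 475 (day 0). The Cd163 S ratio was 1.12 (day 0), the Cd163 G2/M ratio was 0.797 (day 1) and 0.931 (day 5) and the TdTomato G2/M ratio was 0.542 (day 1). The Sparc S ratio was 0.976 (day 2) and 0.875 (day 5), the Acp5 G2/M ratio was 0.138 (day 2) and 1.99 (day 5) and the TdTomato S ratio was 0.779 (day 2). With core lists, the S level was 141 (day 0), 145 (day 1), 145 (day 2) and 177 (day 5) and the G2/M level was 269 (day 0), 169.8 (day 1), 119 (day 2) and 269.6 (day 5). The G2/M level ratio to day 0 was 0.631 (day 1) and 0.442 (day 2). The S share in percent was 0.6999 (day 0), 0.926 (day 1), 0.625 (day 2) and 1.17 (day 5) and the G2/M share in percent was 2.58 (day 0), 1.38 (day 1), 0.771 (day 2) and 2.19 (day 5). The S to G2/M ratio was 0.853 (day 1), 1.22 (day 2) and 0.656 (day 5). The H2-Aa S ratio was 1.12 (day 0), the Acp5 G2/M ratio was 0.632 (day 0) and the Sparc G2/M ratio was 0.394 (day 1), 0.431 (day 2) and 0.259 (day 5). The H2-Aa G2/M ratio was 3.05 (day 1) and 3.28 (day 2), the Plac8 G2/M ratio was 0.355 (day 1), 0.506 (day 2) and 0.28 (day 5) and the TdTomato G2/M ratio was 0.403 (day 2). The Plac8 S ratio was 0.238 (day 5). With the 5% of cells with most UMIs left out, the S level was 210.0 (day 1), 184 (day 2) and 243 (day 5) and the G2/M level was 321 (day 1) and 433 (day 5). The S level ratio to day 0 was 0.827 (day 1), 0.725 (day 2) and 0.958 (day 5) and the G2/M level ratio to day 0 was 0.642 (day 1) and 0.867 (day 5). The S share in percent was 0.862 (day 1) and 0.812 (day 2) and the G2/M share in percent was 1.63 (day 1) and 2.54 (day 5). The S share ratio to day 0 was 0.553 (day 1), 0.521 (day 2) and 0.877 (day 5) and the G2/M share ratio to day 0 was 0.356 (day 1), 0.244 (day 2) and 0.553 (day 5). The S to G2/M ratio was 0.636 (day 2). The count of members at least 2-fold higher was 1 (day 1), 1 (day 2) and 0 (day 5) and the count at least 2-fold lower was 8 (day 1) and 7 (day 5). The Cd163 S ratio was 1.23 (day 0), the Cd163 G2/M ratio was 0.925 (day 0) and 1.45 (day 5) and the Acp5 G2/M ratio was 0.609 (day 0) and 0.815 (day 5). The H2-Aa S ratio was 1.42 (day 1) and 0.82 (day 2), the Plac8 G2/M ratio was 0.929 (day 5) and the Acp5 S ratio was 0.828 (day 5). The TdTomato S ratio was 1.02 (day 5). With 1 UMI counted as positive, the S share in percent was 10.7 (day 0), 9.76 (day 1), 10.51 (day 2) and 11.2 (day 5) and the G2/M share in percent was 16.2 (day 0), 11.5 (day 1), 10.9 (day 2) and 15.5 (day 5). The G2/M share ratio to day 0 was 0.709 (day 1) and 0.674 (day 2). With 3 UMIs counted as positive, the S share in percent was 0.269 (day 0), 0.474 (day 1), 0.257 (day 2) and 0.587 (day 5) and the G2/M share in percent was 2.21 (day 0), 1.31 (day 1), 0.808 (day 2) and 2.04 (day 5). The S share ratio to day 0 was 1.76 (day 1) and 2.18 (day 5). With 2 UMIs of the status gene, the Aqp1 S ratio was 1.33 (day 0), the Aqp1 G2/M ratio was 1.52 (day 0), 0.707 (day 1) and 1.27 (day 2) and the Cd163 S ratio was 1.12 (day 0). The Cd163 G2/M ratio was 0.269 (day 0) and 0.296 (day 5), the Sparc S ratio was 0.484 (day 1) and 0.978 (day 2) and the TdTomato S ratio was 0.991 (day 1). The Sparc G2/M ratio was 0.191 (day 5). With thinning to 750 UMIs, the G2/M level ratio to day 0 was 0.696 (day 2). The S share in percent was 2.26 (day 0), 2.02 (day 1), 2.06 (day 2) and 3.59 (day 5) and the G2/M share in percent was 6.19 (day 0), 3.1 (day 1), 2.72 (day 2) and 5.32 (day 5). The S to G2/M ratio was 0.575 (day 5). The Cd163 S ratio was 0.969 (day 1), the Cd163 G2/M ratio was 0.708 (day 1) and 0.91 (day 5) and the Acp5 S ratio was 0.566 (day 1). The TdTomato S ratio was 0.745 (day 2), the Aqp1 S ratio was 0.868 (day 5) and the H2-Aa G2/M ratio was 1.05 (day 5). With median-ratio scaling, the count of members at least 2-fold higher was 0 (day 5). With no filter on low values, the count of members at least 2-fold higher was 1 (day 1), 1 (day 2) and 5 (day 5) and the count at least 2-fold lower was 14 (day 1), 20 (day 2) and 2 (day 5). With a 20 CPM filter, the count at least 2-fold lower was 3 (day 1) and 4 (day 2). With levels from all UMIs, the count of other S-phase and replication genes at least 2-fold higher was 11 (day 0) and the count of other G2/M and mitosis genes at least 2-fold higher was 7 (day 0). The summed ratio of chromatin and tubulin genes of dividing cells was 3.87 (day 1) and 3.92 (day 2).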

Other observations

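The following genes were chosen after their values were seen, and their levels come from all UMIs of G2/M cells and of cells with no G2/M UMI. Genes of antigen presentation differed between days. H2-Ab1, another MHC class II chain, stood at 2550, 6884, 8210 and 2693 CPM in G2/M cells at days 0, 1, 2 and 5, against 1950, 2600, 1871 and 3397 CPM in cells with none. Cd74, the invariant chain, had ratios of 1.57, 2.45, 3.97 and 0.841. Cd209a, a lectin of monocyte-derived dendritic cells, had ratios of 1.23, 2.84, 6.39 and 0.623, and Ccr2, the chemokine receptor of blood monocytes, 2.06, 2.74, 3.58 and 0.414. On days 0, 1 and 2 these ratios were above 1, and at day 5 they were below 1. The Cd209a interval of day 0 (0.580 to 2.33, from 10 UMIs in G2/M cells) included 1. Without the 5% of cells with most UMIs the day 5 ratios were 1.08 for H2-Ab1, 1.11 for Cd74, 0.843 (0.700 to 1.01) for Ccr2 and 0.888 (0.615 to 1.24) for Cd209a. The day 5 decreases thus depended on the deepest cells.

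Genes of osteoclasts moved the other way at day 5. Ctsk, a collagen-degrading protease, stood at 1847 CPM in G2/M cells of day 5, against 349 in cells with none, a ratio of 5.30 (5.02 to 5.59), and at 0.366, 0.735 and 2.29 on days 0, 1 and 2. Mmp9, a matrix protease, stood at 641 and 58.4 CPM at day 5, a ratio of 10.99, and Atp6v0d2, a proton pump subunit, at a ratio of 5.24. Without the 5% of cells with most UMIs, these day 5 ratios were 1.56, 3.87 and 3.72. The day 2 Ctsk ratio was then 0.677 (0.349 to 1.19), so its value above 1 depended on the deepest cells. The part of doublets in these ratios was not tested.

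Genes of tissue macrophages were lower in G2/M cells at each day. Lyve1 had ratios of 0.725, 0.375, 0.198 and 0.232 at days 0, 1, 2 and 5, Folr2 of 0.644, 0.408, 0.357 and 0.227, and Retnla of 0.418, 0.374, 0.296 and 0.133. Replication histone genes were also higher in them: Hist1h2ap had ratios of 24.0, 90.7, 124 and 46.8.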
